A study of Mus musculus with 30 samples.

Results

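Definitive endoderm cultures grown from mouse pluripotent cells differed on day 5 in their levels of 2 pluripotency genes. Of the 9 arrays of unamplified RNA taken on that day, 5 had low levels of the pluripotency genes Pou5f1 and Nanog and 4 had high levels, and these sets are called advanced and lagging here. The names stand for that split alone. The arrays were chosen by these measured values: an array was advanced where the mean of its Pou5f1 and Nanog log2 intensities was under 9 and lagging otherwise. The advanced arrays were ES replicate 1, ST8 replicate 2 and all 3 replicates of ST5, and the lagging arrays were ES replicates 2 and 3 and ST8 replicates 1 and 3. The mean of both genes was 8.30 in ES replicate 1, the advanced array nearest the limit, and 9.44 and 9.42 in ES replicates 2 and 3, the lagging arrays nearest it. It was 7.05 in ST8 replicate 2, 7.16, 7.49 and 7.04 in ST5, and 10.21 and 10.14 in ST8 replicates 1 and 3. On the 9 arrays of day 0 cells the 2 genes lay between 10.70 and 11.12. These values chose the groups, so Pou5f1 and Nanog are left out of the counts and findings below.

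The whole series holds 30 Affymetrix mouse gene arrays, 18 of unamplified and 12 of amplified RNA, with 3 biological replicates in each of 10 groups. ES cells and the induced pluripotent stem (iPS) clones ST5 and ST8, all C57BL/6x129SvJae, were profiled on day 0, sorted as Sox2bright, and on day 5 of endoderm differentiation, sorted as ckit+/Sox2dim. The amplified arrays hold ES cells of both days and 2 populations of Swiss webster embryos at E8.25: foregut endoderm, sorted by the surface antigen ENDM1 with Epcam and low side scatter, and Epcam+ cells negative for ENDM1. Each iPS line is 1 clone, and the sources used here do not say how the clones were made or which agents drove the differentiation. All unamplified RNA was isolated with 1 kit (miRNeasy), the embryo RNA with another (RNeasy Micro), so strain, sort and kit differ together between the foregut and the ES cells. The deposited intensities were already normalized across arrays, and the medians of the day 5 arrays ranged from 5.54 to 5.57. Intensities are on the log2 scale, where a difference of 1 is 2-fold.

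Definitive endoderm is the germ layer that lines the gut and forms liver and pancreas. In the embryo, Nodal signalling in the primitive streak turns on Eomes and Mixl1, and then Foxa2, Sox17 and the Gata factors, as cells leave the epiblast and lose its pluripotency genes. Cultures pass through a like order of states, and the surface receptors Kit and Cxcr4 are the usual handles for sorting the endoderm they form.

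Every difference between advanced and lagging arrays below is an estimate from a linear model with cell line and state as terms. Because all ST5 arrays were advanced, it comes from ES and ST8, where both states occur. A gene was called where this difference was at least 1 and the 5 advanced arrays did not overlap the 4 lagging ones. No p-value is given for it, since the groups were formed on the same arrays. Errors after ± are standard errors whose spread was moderated across genes (5 residual degrees of freedom before that). The model held n = 5 advanced and 4 lagging arrays. The difference itself rests on ES replicate 1 and ST8 replicate 2 against the 4 lagging arrays.

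Of 19936 genes, 247 were called higher in the advanced arrays and 200 were called lower. These are 1.24% and 1% of the genes, and since the arrays were split by their own levels nothing is read from those shares. In bulk RNA, fewer cells of a type and less RNA per cell cannot be told apart. Without the size limit, 2665 genes (13.4%) were higher and 2603 (13.1%) lower with no overlap between the groups. The lines resembled each other only in part: the difference within ES and that within ST8 correlated over all genes at Pearson's r = 0.723 and Spearman's rho = 0.535, as a description across genes, which are not independent. The states lay further apart in ST8, where 655 genes were called from that line alone, against 352 in ES. The ST8 difference was the larger one for 175 of the 200 lower genes and for 145 of the 247 higher ones. The number of genes called lower rested on single arrays. It was 109 without ST8 replicate 2 and 329 without ES replicate 1, against 218 and 309 genes called higher.

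State set the arrays apart more than line did. Arrays of the same state and different lines correlated at 0.9921 to 0.9959 when advanced and at 0.9917 to 0.9943 when lagging. Arrays of the same line and different state correlated at 0.9828 to 0.9886. These coefficients leave out the 2 genes of the split and are a description.

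**Figure D1:**
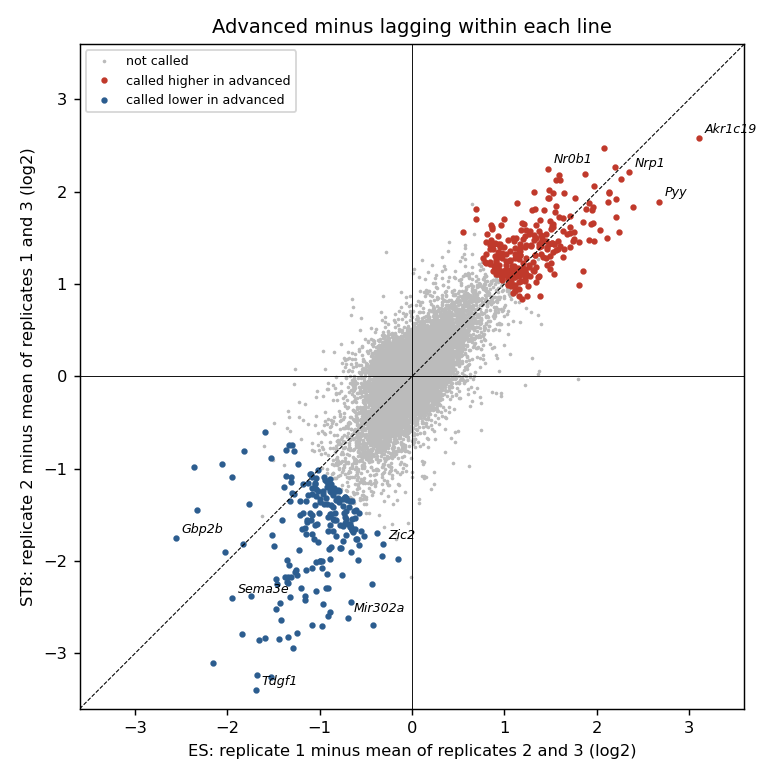
Difference between advanced and lagging arrays in ES cells (horizontal axis, log2) against the same difference in ST8 cells (vertical axis, log2), 1 point per gene. The genes named on the plot lie in the same quadrant in both lines, and Pearson's r over all genes was 0.723.

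Endoderm transcription factors were higher in the advanced arrays. Of the 19 on the list, 10 were called higher and none lower, and 14 were higher with no overlap. Their median difference was 1.21, against -0.01 over all genes. Over all genes, 1.24% were called higher and 1% lower, and 13.4% were higher and 13.1% lower with no overlap. The counts for the lists below stand beside these shares. Sox17, which specifies endoderm, measured 9.35 in ES, 9.30 in ST8 and 8.99, 8.82 and 8.69 in ST5 among the advanced arrays, and 7.15 and 7.28 in ES and 7.40 and 7.23 in ST8 among the lagging ones. The lowest advanced array stood more than 1 log2 unit above the highest lagging array, and the difference was 2.06 ± 0.10. Hhex, a homeobox factor of the anterior endoderm and liver bud, lay at 9.61, 9.75, 9.88, 9.88 and 9.82 in the advanced arrays and at 7.53, 7.43, 7.93 and 7.79 in the lagging ones. All 5 advanced arrays were alike, across all 3 lines, and the difference was 2.01 ± 0.08.

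Rfx6, a winged-helix factor of gut endoderm and pancreatic islets, had the same pattern. Its advanced levels were 9.36, 9.93, 9.74, 9.88 and 9.86 and its lagging levels 7.05, 7.26, 7.95 and 8.07, a difference of 2.06 ± 0.09 with no overlap. Gata6 differed by 1.66 ± 0.11 and Gata4 by 1.49 ± 0.10, both zinc finger factors of early endoderm. Foxa3, a forkhead factor of gut and liver, differed by 1.81 ± 0.11, and the nuclear receptor Hnf4a, which drives liver and gut genes, by 1.21 ± 0.09. Prdm1, a repressor that is made in anterior endoderm, differed by 1.49 ± 0.08. Foxa2, which opens chromatin at endoderm genes, stood at 8.86, 8.94, 8.82, 8.76 and 8.81 in the advanced arrays and at 7.91, 7.87, 7.95 and 7.88 in the lagging ones. These groups did not overlap, but the difference fell just short of the size limit.

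Genes that act earlier, in the primitive streak, differed less. Of 15 streak genes, 1 was called higher: Lhx1, a LIM factor of streak and anterior endoderm, at 9.87, 9.96, 9.76, 9.86 and 9.77 in the advanced arrays and 8.39, 8.37, 8.60 and 8.46 in the lagging ones. The difference was 1.46 ± 0.07. Eomes, the T-box factor at the head of the endoderm programme, differed by 0.51, Gsc by 0.76 and Mixl1 by 0.14, none of them called. The median of the 15 genes was 0.02.

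Surface and secreted markers of endoderm followed the factors. Of 23, 6 were called higher and none lower, and 16 were higher with no overlap, with a median difference of 0.62. Cxcr4, the chemokine receptor used to sort endoderm, measured 11.37, 11.36, 11.37, 11.35 and 11.41 in the advanced arrays and 10.12, 10.14, 10.14 and 10.02 in the lagging ones. Both groups were tight, and the difference was 1.26 ± 0.06. Lagging arrays were nonetheless 3.15 above day 0 for Cxcr4, and advanced arrays 4.30 above it. Cer1, which encodes a secreted antagonist of several morphogens, differed by only 0.62 ± 0.08 and was 4.07 above day 0 in the lagging arrays already. The protease gene Tmprss2 (1.97), the carboxypeptidase gene Cpm (1.66), the trypsin inhibitor gene Spink1 (1.51) and the adhesion gene Flrt3 (1.40) were called higher.

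The gene with the largest difference was Akr1c19, an aldo-keto reductase. It measured 8.46, 8.81, 8.50, 8.77 and 8.78 in the advanced arrays and 5.18, 5.52, 6.39 and 6.07 in the lagging ones, and the difference was 2.85 ± 0.15, or 7.19-fold. No lagging array came within 2 log2 units of an advanced one. Pyy, which encodes a gut hormone, had 10.41, 11.34, 10.54, 10.70 and 10.71 in the advanced arrays and 7.48, 7.99, 9.15 and 9.75 in the lagging ones, a difference of 2.28 ± 0.21. The lagging ST8 arrays lay between the lagging ES arrays and the advanced ones for Pyy. Nrp1, a receptor for class 3 semaphorins and VEGF, had 9.01, 9.55, 9.81, 9.73 and 9.75 against 6.61, 6.70, 7.39 and 7.29, a difference of 2.28 ± 0.07. Completing the 12 largest were Cltrn (collectrin, 2.28), Exph5 (an effector of vesicle release, 2.23), the somatostatin receptor Sstr2 (2.20), Nxf7 of the mRNA export family (2.11), the amino acid transporter Slc38a5 (2.07), Sox17, Rfx6, the Ras exchange factor Rasgrp3 (2.03) and the potassium channel Kcnk16 (2.01).

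**Figure D2:**
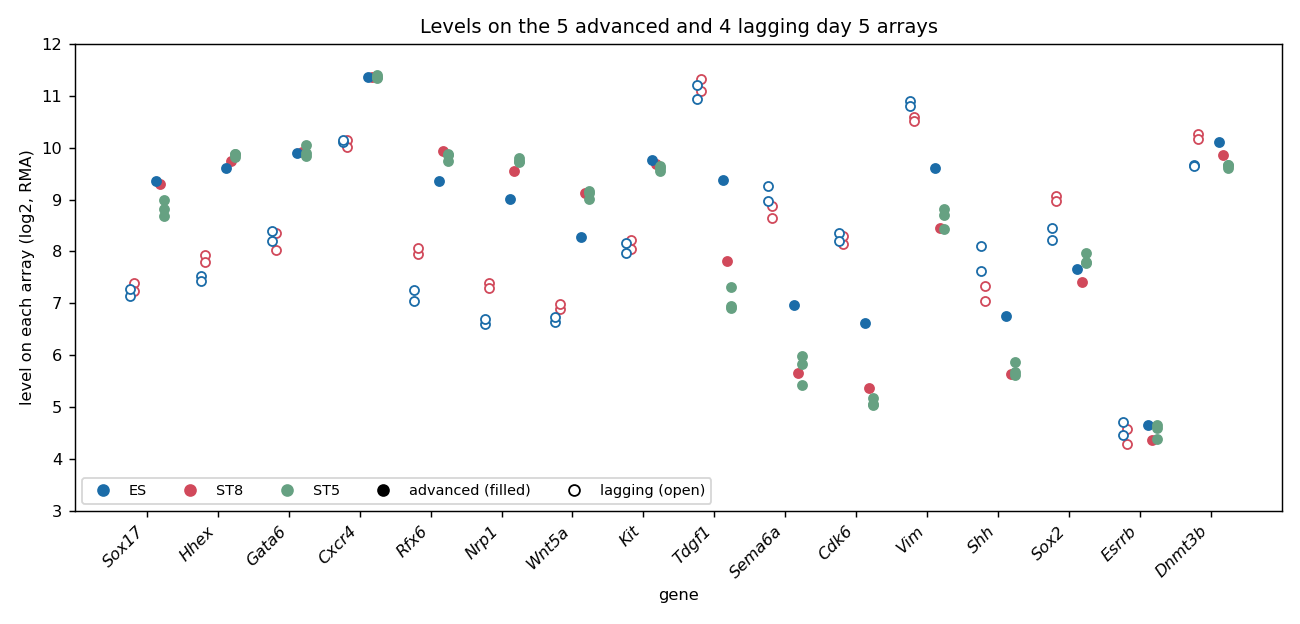
Log2 intensity of 16 genes on each of the 9 unamplified day 5 arrays, with advanced arrays as filled and lagging arrays as open points and the cell line by colour. Sox17, Hhex, Gata6, Cxcr4, Rfx6, Nrp1, Wnt5a and Kit were higher and Tdgf1, Sema6a, Cdk6, Vim, Shh and Sox2 lower in every advanced array, while the groups overlapped for Esrrb and Dnmt3b.

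Endocrine and secretory genes stood out among the genes called higher, and a list of 33 of them was drawn up after their values had been seen. Of these, 11 were called higher and 2 lower. Chga, which encodes the granule protein chromogranin A, had 9.50, 9.59, 9.50, 9.62 and 9.49 in the advanced arrays and 7.44, 7.61, 8.07 and 8.18 in the lagging ones, a difference of 1.72 ± 0.11. Tph1, which makes serotonin outside the brain, differed by 1.32 ± 0.06. The 2 called lower were Pcsk1, a convertase that cuts prohormones (-1.89), and Syp, the vesicle protein synaptophysin (-1.05). The list's median was -0.03, so its members did not share a direction.

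Wnt genes called higher were a ligand, a receptor and 3 secreted inhibitors, 5 of 32 measured, with none called lower and a median of -0.02. Wnt5a, a ligand of the non-canonical branch, had 8.27, 9.12, 9.12, 9.02 and 9.17 in the advanced arrays and 6.64, 6.73, 6.89 and 6.99 in the lagging ones. The difference was 1.88 ± 0.12 with no overlap. The inhibitors were Sfrp5 (1.79 ± 0.10), Dkk1 (1.16 ± 0.13) and Sfrp1 (1.11 ± 0.07), all of which keep Wnt ligands from signalling, and the receptor was Fzd5 (1.26 ± 0.07). Another 7 Wnt genes were lower with no overlap, none of them by the size limit.

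Of 23 Nodal and activin genes, 2 were called lower and none higher, while 7 were higher and 4 lower without overlap, with a median of 0.13. Tdgf1 (Cripto), the co-receptor, had the second largest difference of all genes called lower. It measured 9.38 in ES, 7.81 in ST8 and 6.92, 7.31 and 6.94 in ST5 among the advanced arrays, against 11.21 and 10.93 in ES and 11.10 and 11.32 in ST8 among the lagging arrays, which were close to the day 0 range of 11.83 to 11.95. The difference was -2.55 ± 0.30. The ligand Nodal differed by 0.13 and its target Lefty1 by 0.28, neither called. Fst, which traps activin, was the other gene called lower, at -1.13.

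Of 25 BMP genes, 12 were higher and 4 lower with no overlap, with a median of 0.31. Bmper, a secreted BMP modulator, was called higher (1.20) and Nog, the BMP inhibitor noggin, lower (-1.13). Among 17 retinoic acid genes the receptor Rarb (1.37) and the retinol carrier Rbp4 (1.61) were called higher. No FGF gene of 25 was called, with 3 higher and 7 lower without overlap. Over all genes, 13.4% were higher and 13.1% lower without overlap. The 4 lower BMP genes and the 3 higher FGF genes are near those shares, and nothing is read from them.

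Guidance and adhesion genes split both ways. Of 25, 5 were called higher (Nrp1, Nrp2, Robo1, Sema6d and Flrt3) and 3 lower (Sema6a, Sema3e and Efnb2). Over all genes these shares were 1.24% and 1%. Sema6a, a membrane-bound semaphorin, had the largest difference of all genes called lower. It stood at 6.96, 5.66, 5.42, 5.99 and 5.83 in the advanced arrays and at 9.26, 8.97, 8.64 and 8.88 in the lagging ones, a difference of -2.63 ± 0.21. Its day 0 levels, 6.98 to 7.97, lay between the groups. Robo1, a receptor for Slit proteins, had 9.95, 10.22, 10.29, 10.33 and 10.34 against 8.53, 8.72, 8.75 and 8.62, and Slit2 and Slit3, its ligands, differed by -0.91 and -0.83 with no overlap.

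Of 27 genes of junctions and keratins, 19 were higher with no overlap and none lower, most of them by less than 2-fold. The median was 0.40, and 1 gene, the epithelial transcription factor Ovol2, was called higher (1.05). Cdh1, which encodes E-cadherin, measured 10.97, 11.09, 11.14, 11.17 and 11.15 in the advanced arrays and 10.11, 10.09, 10.45 and 10.43 in the lagging ones. The lagging arrays lay around the day 0 range of 10.12 to 10.37, and the difference was 0.76 ± 0.07. Epcam differed by 0.34 ± 0.09.

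Vim, which encodes the intermediate filament vimentin, measured 9.60, 8.46, 8.71, 8.81 and 8.44 in the advanced arrays and 10.91, 10.80, 10.59 and 10.52 in the lagging ones, a difference of -1.67 ± 0.17. Zeb1 had 5.26, 5.01, 5.51, 5.46 and 5.26 against 6.54, 6.63, 6.45 and 6.26, a difference of -1.33 ± 0.09, and Zeb2 differed by -1.33 ± 0.10. Both encode repressors of E-cadherin. With the actin-binding Tagln (-1.52) these were the 4 genes called lower among 17 of the mesenchymal list. Of the 17, 6 were lower and 1 higher without overlap and 10 overlapped, with a median of -0.22. Fn1, which encodes fibronectin, was the member that was higher (0.57).

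Of 15 genes of naive pluripotency, leaving out the 2 that made the split, 2 were called higher (Nr0b1 and Tfcp2l1), 1 lower (Sox2) and 10 overlapped between the states. Of the same 15, 13 were called below day 0 in the lagging arrays and in the advanced ones, and the median difference between the states was 0.00, over members that differed in both directions. Esrrb, a nuclear receptor of the naive network, measured 4.66, 4.36, 4.59, 4.38 and 4.66 in the advanced arrays and 4.71, 4.47, 4.58 and 4.29 in the lagging ones, against 9.08 to 9.43 on day 0. The groups overlapped fully. Zfp42 (Rex1) differed by 0.05 and Klf4 by 0.37. Dppa5a and Fbxo15, both markers of undifferentiated cells, were 6.34 and 5.35 below day 0 in the lagging arrays and 7.08 and 5.60 below it in the advanced ones.

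The other pluripotency genes were less uniform. Of 19, 3 were called lower: Tdgf1, the chromatin factor gene Utf1 and the RNA-binding gene L1td1 (-1.37). Without overlap, 3 of the 19 were higher and 7 lower. The 19 include Rexo2, which entered through the synonym Rex2 and may not be the gene meant. Utf1 had 7.77, 7.14, 5.94, 6.50 and 5.68 in the advanced arrays and 9.07, 8.97, 9.87 and 9.97 in the lagging ones, with day 0 at 10.29 to 10.79, and the difference was -2.01 ± 0.30. The groups did not overlap and the lagging arrays were nearer to day 0. Lin28a (0.10), Gdf3 (-0.08) and Dnmt3b (0.05), which stay on in the epiblast, were not called. Dnmt3a, the other de novo DNA methyltransferase gene, measured 7.42, 7.37, 7.35, 7.40 and 7.40 in the advanced arrays and 8.53, 8.47, 8.62 and 8.54 in the lagging ones. The gap between those groups was wide beside the spread within them, and the difference was -1.15 ± 0.07. Of 13 genes of the primed epiblast, the zinc finger genes Zic5 (-1.76) and Zic2 (-1.06) were called lower and none higher. Without overlap, 4 of the 13 were higher and 5 lower, with a median of 0.03, so the list did not share a direction.

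A pair of naive genes went the other way. Nr0b1 (Dax1), a partner of the naive network, measured 6.09, 7.42, 7.68, 7.59 and 7.45 in the advanced arrays and 4.53, 4.70, 5.21 and 5.13 in the lagging ones, against 9.59 to 10.24 on day 0. It was thus lowest in the lagging arrays, and the difference was 1.86 ± 0.15. Tfcp2l1, another factor of that network, had 7.34 in ES replicate 1 and 8.22 to 8.36 in the other 4 advanced arrays and 5.85, 6.08, 6.60 and 6.98 in the lagging ones, with day 0 at 9.28 to 10.40, a difference of 1.40 ± 0.11. Including these, 12 genes were called below day 0 and below the advanced arrays in the lagging ones, among them the secreted phospholipase gene Pla2g1b (1.58) and the hypoxia factor gene Epas1 (1.15).

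**Figure D3:**
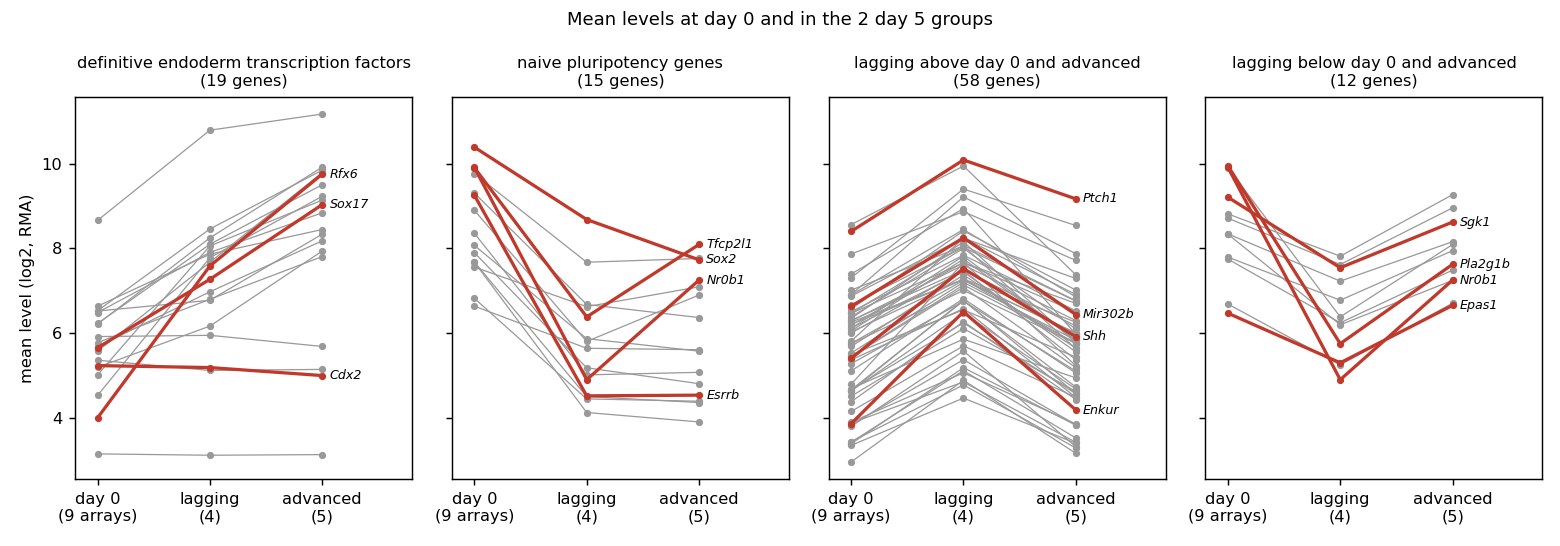
Mean log2 intensity on day 0 (9 arrays), in lagging (4) and in advanced (5) day 5 arrays, 1 line per gene, for 19 endoderm transcription factors, 15 naive pluripotency genes, 58 genes highest in the lagging arrays and 12 lowest there. The last pair of panels was selected for its shape, while Sox17 and Rfx6 were higher at each step and Esrrb was down in both day 5 groups.

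Here and in the differences from day 0 given above, each state was set against the day 0 arrays of its own lines. For lagging arrays these were ES and ST8, and for advanced arrays ES, ST5 and ST8. The comparisons share the ES and ST8 day 0 arrays, but they differ in lines as well as in state. In the lagging arrays, 676 genes (3.39%) were called above day 0 and 529 (2.65%) below. In the advanced arrays, 1085 (5.44%) were above and 883 (4.43%) below. Of the 247 genes higher in the advanced arrays, 224 were called above day 0 in those arrays, and 117 in the lagging ones too. Of the 200 lower genes, 100 were below day 0 in the advanced arrays. These comparisons use the same day 5 arrays as the split, so the counts describe the pattern and test nothing.

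Among the 200 lower genes, 58 were called above day 0 in the lagging arrays, so their level was highest there. Shh, which encodes the ligand Sonic hedgehog, measured 8.10, 7.62, 7.04 and 7.33 in the lagging arrays and 6.76, 5.63, 5.68, 5.86 and 5.62 in the advanced ones. The difference was -1.32 ± 0.15, and the lagging arrays were 2.13 above day 0. Ptch1, the receptor and a target of the pathway, had 10.28, 10.32, 9.79 and 9.96 against 9.28, 8.86, 9.12, 9.26 and 9.31, a difference of -1.01 ± 0.08. Among 13 hedgehog genes, a list made after the values were seen, Gli3 (-1.25) was also called lower and the inhibitor Hhip (1.18) higher. The Wnt amplifier Rspo3 (-1.82) and the apelin receptor Aplnr (-1.52) belonged to the same 58 genes.

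Genes of motile cilia made up a visible share of the lower genes, and a list of 69 was drawn up after this was seen. Of these, 14 were called lower and none higher, and 50 were lower with no overlap, with a median of -0.57. Enkur, a protein of sperm and cilia, measured 6.25, 6.19, 6.86 and 6.70 in the lagging arrays and 5.13, 4.08, 3.85, 3.96 and 3.87 in the advanced ones, a difference of -1.89 ± 0.27. The lagging arrays were 2.60 above day 0. The advanced ST8 and ST5 arrays lay within the day 0 range of 3.47 to 4.40, while ES replicate 1, at 5.13, was above it. The axonemal genes Cfap44 (-1.79) and Nme5 (-1.72) had the same shape, while the ciliary master regulators Foxj1 (-0.22) and Rfx3 (-0.34) were not called. These genes were dim: 63 of the 69 lay below the median level of all genes, and with dim genes left out 4 remained lower without overlap. The mean level over the list was 5.30 to 5.52 in the lagging arrays, 4.56 to 4.88 in the advanced ones and 4.67 to 4.78 on day 0.

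Interferon and antigen presentation genes were lower as well, on a list of 42 that was also chosen after the values were seen. Of these, 15 were called lower and none higher, and 28 were lower with no overlap, with a median of -0.74. B2m, the light chain of MHC class I, measured 8.27, 8.02, 7.44, 7.42 and 7.45 in the advanced arrays and 9.17, 9.22, 9.24 and 9.20 in the lagging ones, a difference of -1.06 ± 0.07. The transcription factor gene Irf1 had 7.08, 6.92, 6.55, 6.41 and 6.13 against 8.54, 8.41, 8.03 and 8.20, a difference of -1.29 ± 0.11. Its day 0 levels of 7.56 to 8.21 were near the lagging ones. The guanylate-binding protein gene Gbp2b differed by -2.16 ± 0.19, and Irf9, of the interferon receptor pathway, was higher without overlap (0.37). On day 0 the list's mean level was 5.89 to 6.12, in the lagging arrays 5.83 to 6.41 and in the advanced ones 5.21 to 5.49.

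Of 33 cell cycle genes, 19 were lower and 3 higher without overlap, with a median of -0.20. Over all genes, 13.1% were lower and 13.4% higher without overlap. The kinase gene Cdk6 measured 6.62, 5.37, 5.18, 5.06 and 5.05 in the advanced arrays and 8.36, 8.20, 8.15 and 8.29 in the lagging ones, a difference of -2.25 ± 0.21, and the cyclin gene Ccnd1, its partner, differed by -1.27 ± 0.19. The inhibitor gene Cdkn2a was called higher (1.06 ± 0.10). Of 17 targets of p53, 11 were lower and 1 higher without overlap, and Eda2r (-1.42), a death receptor gene, and Pmaip1 (Noxa), just past the size limit, were called lower. The largest other differences downward were Penk (an enkephalin precursor, -2.46), Enpp3 (an ectonucleotidase, -2.39), Igfbp3 (an IGF carrier, -2.32), Prps1 (of nucleotide synthesis, -2.21), Sema3e (-2.17), Bhlhe40 (a repressor, -2.15) and Slc27a2 (of fatty acid uptake, -2.08).

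Of 15 microRNA genes on the list, 5 were called lower and none higher, 2 were higher without overlap and 8 overlapped, with a median of -0.13. The 5 were the members of the cluster of miR-302 and miR-367, known from pluripotent cells, and the 2 were Mir200b (0.89) and Mir200a (0.40), of the epithelial miR-200 family. Sequences of some lower ones are shown because the seed of a microRNA is what pairs with its targets, and members of different clusters share one. The miR-302a-3p sequence was not in the sources used here. Mir363 and Mir106a, of a cluster on the X chromosome that was listed after its values were seen, were called lower too. Mir20b of that cluster, also shown, was lower without overlap but not called. The lines give mature sequences 5' to 3' from RefSeq (GRCm38.p6), with the seed, bases 2 to 8, in capitals.
miR-302b-3p: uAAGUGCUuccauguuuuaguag
miR-302d-3p: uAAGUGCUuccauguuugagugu
miR-302c-3p: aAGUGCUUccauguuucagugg
miR-367-3p: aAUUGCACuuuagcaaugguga
miR-363-3p: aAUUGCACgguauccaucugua
miR-106a-5p: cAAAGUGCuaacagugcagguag
miR-20b-5p: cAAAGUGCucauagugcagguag
The first 3 and miR-367-3p lie on the plus strand of chromosome 3, at chr3:127545275-127545297, chr3:127545665-127545687, chr3:127545406-127545427 and chr3:127545779-127545800. The other 3 lie on the minus strand of chromosome X, at chrX:52741697-52741718, chrX:52742541-52742563 and chrX:52742159-52742181. miR-367-3p and miR-363-3p carry the same seed although they come from different clusters. miR-106a-5p and miR-20b-5p, of the same cluster, also share a seed. The run AGUGC is in the seeds of the miR-302 sequences above and of miR-106a-5p and miR-20b-5p alike. Probe sets of these arrays do not separate a precursor from its mature form.

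Mir367 measured 3.56, 3.35, 3.11, 3.48 and 3.05 in the advanced arrays and 4.76, 4.95, 6.62 and 5.97 in the lagging ones, a difference of -2.11 ± 0.32. Mir302b had 6.46, 6.50, 6.42, 6.57 and 6.21 against 7.61, 7.62, 9.02 and 8.74, a difference of -1.77 ± 0.22. Lagging ST8 arrays were above lagging ES arrays for both, and no advanced array overlapped them. Mir302c (-1.72), Mir302d (-1.68) and Mir302a (-1.65) were called lower too. Mir363, with the miR-367 seed, had 3.20, 3.03, 2.62, 2.45 and 2.36 against 4.74, 4.36, 5.46 and 5.05, a difference of -1.79 ± 0.20. Mir106a (-1.01) was called, and Mir20b (-0.50) and Mir19b-2 (-0.42) of its cluster were lower without overlap. Many microRNA genes were dim: all 4 measured genes of the Mir363 cluster and 10 of the 15 on the list lay below the median level of all genes. The cluster of miR-302 and miR-367 was highest in the lagging arrays, not on day 0. Mir302b was at 6.04 to 7.23 on day 0, and differed from it by 1.74 in the lagging arrays and by -0.17 in the advanced ones. The other 4 members had the same shape. Mir363 differed from that: lagging arrays were at -0.05 from day 0 and advanced arrays at -1.95.

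The sorting genes moved with the split. Kit measured 9.77, 9.68, 9.65, 9.55 and 9.60 in the advanced arrays and 7.97, 8.16, 8.22 and 8.04 in the lagging ones, a difference of 1.63 ± 0.08. Sox2 measured 7.67, 7.42, 7.80, 7.78 and 7.97 in the advanced arrays and 8.46, 8.22, 9.06 and 8.97 in the lagging ones, a difference of -1.14 ± 0.17. Although all cells were sorted as ckit+/Sox2dim, Kit in the lagging arrays was at the low end of, or below, the day 0 range of 8.20 to 9.07. The part of the sort in the differences was not tested.

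Markers of other cell types were called in small numbers, with some lists leaning to one side. Of 22 endothelial and blood genes, Flt1 (a VEGF receptor, 1.43) and Runx1 (a blood factor, 1.20) were called higher and none lower, and the mean level of the list was 5.23 to 5.35 in the advanced and 5.10 to 5.25 in the lagging arrays. Of 20 mesoderm and heart genes, Isl1 alone was called (1.25), with list means of 5.68 to 5.94 and 5.57 to 5.92. Of 22 neural and surface ectoderm genes, Hesx1 was called higher (1.57) and Nes lower, with list means of 5.30 to 5.36 and 5.31 to 5.50. None of the 21 Hox and Cdx genes was called.

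Of 19 visceral endoderm and yolk sac genes, Rbp4 was called higher and Lrp2 (megalin, -2.06) lower, and the list means were 5.58 to 5.99 in the advanced and 5.37 to 5.74 in the lagging arrays. Afp, its defining marker, was between 3.74 and 4.19 on all 9 arrays, below the array medians. Of 13 trophoblast genes, 6 were higher and none lower without overlap and Ascl2 was called (1.53), with list means that did not overlap, 6.01 to 6.09 in the advanced and 5.65 to 5.70 in the lagging arrays. Of those 6, Eomes is an endoderm factor as well. Of 16 genes of parietal endoderm and basement membrane, 8 were higher and 3 lower without overlap, with list means of 7.34 to 7.52 and 7.26 to 7.37. Laminin and collagen IV genes were among the 8, such as Lamc1 (0.65) and Col4a1 (0.47). Over all genes, 13.4% were higher and 13.1% lower without overlap, and the trophoblast and fibroblast counts stand beside these shares too. Fibroblast genes, which mark feeder cells, had list means of 5.34 to 5.51 in the advanced and 5.59 to 5.80 in the lagging arrays, against 7.15 to 7.43 on day 0, with 5 of 18 lower without overlap. Lox, a collagen crosslinker among them, was at 3.50 to 3.86 and 3.93 to 4.25, against 7.78 to 8.42 on day 0. The part of such cells in the differences was not tested.

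**Figure D4:**
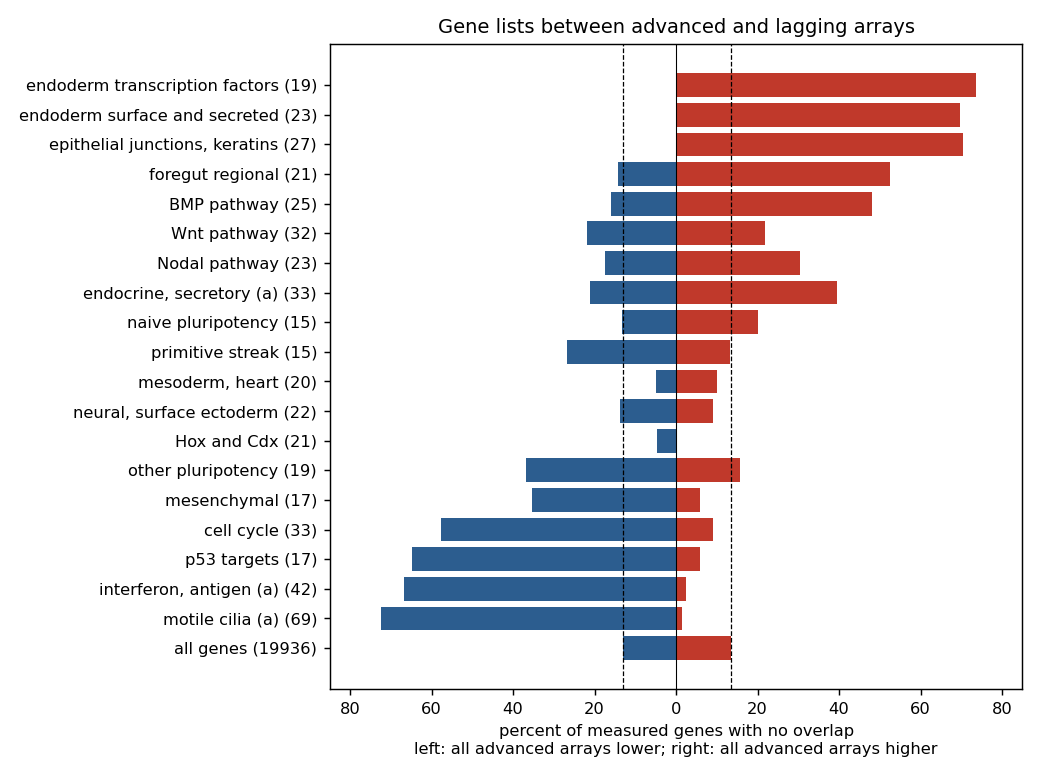
Percent of each gene list that was lower (left) or higher (right) in the advanced arrays with no overlap between the 5 advanced and 4 lagging arrays, with all genes as dashed lines at 13.1% and 13.4%. Lists marked (a) were drawn up after their values had been seen, and 14 of 19 endoderm transcription factors were higher while 50 of 69 motile cilia genes were lower.

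Of the 5 advanced arrays, ES replicate 1 lay nearest the lagging ones for most called genes. It is the only ES array among the 5, so this array and the ES line cannot be told apart. The genes were called on these same arrays, so the counts are a description. It was the lowest of the 5 advanced arrays for 172 of the 247 higher genes (69.6%, against 23% over all genes) and the highest for 153 of the 200 lower genes (76.5%, against 27.3%). Its median position was 78.7% of the way from the lagging mean to the mean of the other 4 advanced arrays for higher genes, and 71.8% for lower genes. Cdk6 at 6.62 and Shh at 6.76 are examples, while Sox17 was highest in that array.

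The 12 amplified arrays played no part in the split. Their ES day 5 replicate 1 was set against replicates 2 and 3 because it bears the number of the advanced unamplified ES array. The genes of the split differed there too, with Pou5f1 at 7.72 against 8.92 and 8.82 and Nanog at 7.80 against 9.32 and 9.29, so the counts below describe that array and test nothing. Whether a number marks the same culture in both labellings is not given in the sources used here. If it does, those arrays are a second measurement of the same cells and not independent. The difference of amplified replicate 1 from the mean of replicates 2 and 3 was above 0 for 246 of the 247 higher genes, against 53.6% of all genes, and Irx5 was the exception. It was below 0 for 197 of the 200 lower genes, against 46.4% of all genes.

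At 2-fold and beyond both other replicates, 140 genes (0.702%) were higher and 127 (0.637%) lower in amplified replicate 1. Among them were 102 of the 247 higher and 70 of the 200 lower genes. With 1 array on a side this comparison has no test. Akr1c19 differed by 3.09, Rfx6 by 2.18, Sox17 by 1.73, Sema6a by -1.92, Mir363 by -1.88 and Enkur by -1.84. Other called genes were close to 0 there, among them Mir302b (0.01), Mir302d (0.00), Nog (-0.01) and Shh (-0.24). Across genes the amplified difference correlated with the unamplified ES difference at r = 0.65 and with the ST8 difference at 0.621. All 24 cholesterol and fatty acid genes were above 0 in amplified replicate 1, with a median of 0.38, and on the unamplified arrays their median was 0.20 with none called.

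**Figure D5:**
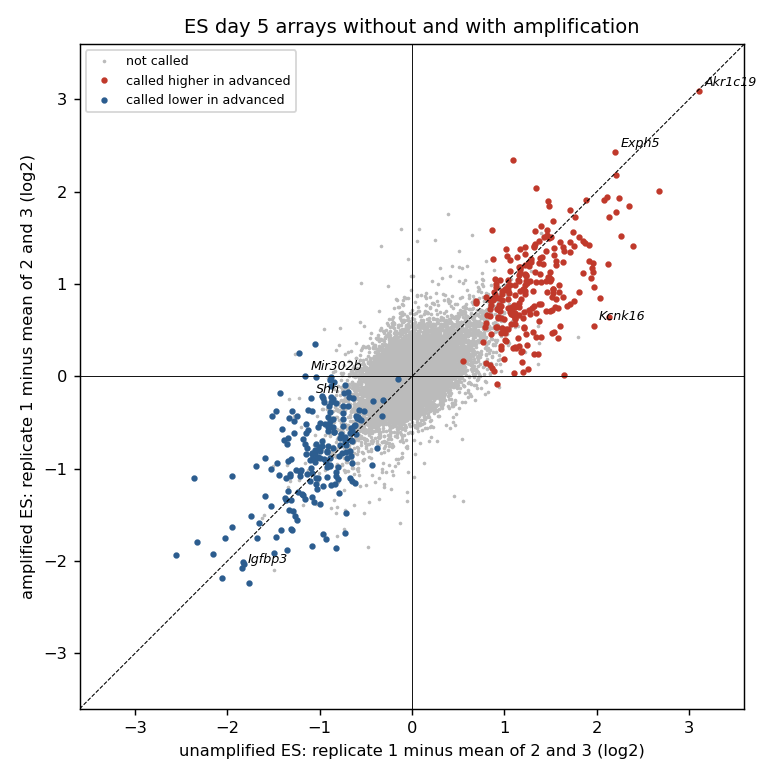
Difference of ES day 5 replicate 1 from the mean of replicates 2 and 3 on unamplified arrays (horizontal axis, log2) against the same difference on amplified arrays (vertical axis, log2), 1 point per gene, coloured where called between advanced and lagging arrays. Nearly all called genes lie on the same side of 0 in both, with 246 of 247 higher genes above 0 on the vertical axis, and Mir302b and Shh lie near 0 on the vertical axis.

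Amplified ES cells of day 5 were compared with day 0 to ask which of these genes changed in arrays the rule did not use (limma, adjusted p under 0.05, n = 3 and 3). Over all genes, 2596 (13%) rose and 2756 (13.8%) fell. Of the 247 genes higher in the advanced arrays, 154 rose and 9 fell. Of the same 247, 224 were already called above day 0 in the advanced arrays. Amplified replicate 1 was above the mean of replicates 2 and 3 for 246 of them. A rise was therefore likely beforehand for these genes too, and their count tests nothing. Of the 200 lower genes, 46 rose and 44 fell. Endoderm factors rose in 13 of 19 cases and none fell, with Sox17 up by 1.72 (limma adjusted p = 0.00201). All 15 naive genes fell. Of the 58 genes highest in the lagging arrays, 41 rose and none fell, Enkur by 2.74 (limma adjusted p = 0.000172) and Ptch1 by 1.55 (limma adjusted p = 9.53e-05). The 58 were chosen for standing above day 0 in lagging arrays. Of the amplified day 5 arrays, replicates 2 and 3 had the higher Pou5f1 and Nanog, as given above. A rise of these genes was therefore likely beforehand, and the count tests nothing. Of the 69 cilia genes, 28 rose and 2 fell. Amplified replicate 1 lay below the mean of the other replicates for 57 of the 69, and for 38 of the 42 interferon genes.

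Foregut endoderm of E8.25 embryos was set against amplified ES day 5 cells to see where the genes of the split stood in embryonic endoderm. Over all genes, 2939 (14.7%) were higher and 1876 (9.41%) lower in foregut (limma, adjusted p under 0.05, n = 3 and 3). That split depended on scaling: 61% of the called genes were higher as deposited, 45.1% after the arrays were set to a common median (1942 and 2362 genes) and 51.5% after a further quantile normalization (2340 and 2205). Of the 247 genes higher in the advanced arrays, 45 were higher and 46 lower in foregut. Of the 200 lower genes, 9 were higher and 98 were lower there. The median foregut difference was 0.04 for the former and -0.55 for the latter, against 0.08 for all genes. On the ES side, amplified replicates 2 and 3 had the higher Pou5f1 and Nanog. Their mean was above replicate 1 for 197 of the 200 lower genes. Lower values in foregut were thus likely beforehand for those genes, and these counts and medians test nothing.

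Single genes spanned a wide range in that comparison. Tdgf1 was lower in foregut (-6.25, limma adjusted p = 6.48e-07), and Mir363 differed by -5.12 (limma adjusted p = 8.82e-06). Nrp1 was higher by 1.98 (limma adjusted p = 0.00208) and Pyy by 1.98 (limma adjusted p = 0.00579), as they were in the advanced arrays. Sox17 differed by 0.03 (limma adjusted p = 0.958). Lhx1 was lower in foregut (-3.01, limma adjusted p = 1.89e-06) although higher in the advanced arrays, and so was Tph1 (-3.20). Of the 58 genes highest in the lagging arrays, 37 were lower in foregut and none higher, Nme5 by -2.92 (limma adjusted p = 0.000122). Sema6a was among those that did not pass (-0.10). The ES side holds the same amplified day 5 arrays as the comparison with day 0, so this count tests nothing about the 58 either.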

How the data were processed

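RNA from 30 samples was hybridised to Affymetrix Mouse Gene 1.0 ST arrays. The authors deposited log2 intensities made with RMA, per the submitters' processing notes; its version, and whether unamplified and amplified arrays were normalized together, are not given in the sources used here. Levels were therefore not compared across labelling. Of 35556 probe sets, 21789 paired with 1 gene, 1621 with several and 12146 with none listed; for 999 genes with several, the one with the highest mean was kept, and Pou5f1 and Nanog were left out. Differences were fitted with limma 3.58.1 in R 4.3.3 (line and state on the 9 day 5 arrays; 4 groups on the 12 amplified arrays, with Benjamini-Hochberg adjustment), tested on simulated data. P-values weigh a difference against the spread between replicates within the 4 amplified groups, moderated across genes. They do not cover the other differences between the foregut and the ES cells given above. The number of arrays limits the precision. Members and lists were chosen with earlier results of these data known. Genes were named by rule (the 12 largest called differences in each direction, the 2 largest called per list and direction, sorting genes and fixed markers), and others after their values were seen. Mature sequences were credited to RefSeq (GRCm38.p6).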

Additional observations from a re-analysis of the deposited data

Results flagged for a closer look

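For 164 gene and group pairs, the highest or lowest array was compared with the rest of its group, and chance alone singles out about 5% of such groups where all arrays are alike. Among the 5 advanced arrays, ES replicate 1 stood apart for 16 genes. It is the only ES array there, beside 1 of ST8 and 3 of ST5, so this array and the ES line cannot be told apart and the 5% may not hold. It was lower than the others for Slc38a5 (8.34, others 9.04 to 9.29), Nr0b1 (6.09, others 7.42 to 7.68), Tfcp2l1 (7.34, others 8.22 to 8.36), Rbp4 (8.37, others 9.60 to 9.77), Wnt5a (8.27, others 9.02 to 9.17), Bmper (8.18, others 8.85 to 9.06) and Rarb (8.45, others 8.84 to 8.87). In each of these it lay on the side of the lagging arrays.

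ES replicate 1 was higher than the other advanced arrays for Enpp3 (7.46, others 6.24 to 6.40), Igfbp3 (8.14, others 7.09 to 7.33), Cdk6 (6.62, others 5.05 to 5.37), Sema3e (5.92, others 4.99 to 5.11), Bhlhe40 (5.83, others 4.69 to 5.00) and Slc27a2 (6.73, others 5.47 to 5.74). It was also higher for Zic2 (8.10, others 7.10 to 7.36), Shh (6.76, others 5.62 to 5.86) and Nog (6.42, others 5.80 to 5.96). These too lay towards the lagging arrays. ST8 replicate 2 stood apart for Flt1 at 9.85, with the others at 9.59 to 9.64.

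Among the 4 lagging arrays, ES replicate 2 stood apart for Igfbp3 (10.08, others 9.90 to 9.91) and for Ovol2 (6.23, others 6.50 to 6.54). ST8 replicate 3 was low for Cxcr4 (10.02, others 10.12 to 10.14) and ES replicate 3 for Eomes (8.04, others at 8.22 or above). There were 3 genes that differed in opposite directions within the lines. Mixl1 was 0.51 in ES and -0.23 in ST8, Zfp42 -0.20 and 0.29, and Dnmt3b 0.45 and -0.35, and the difference between the lines was not tested.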

How the results depend on the processing

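The count of genes higher in the advanced arrays was 681 at a 1.5-fold limit and 13 at 4-fold, and that of lower genes 608 and 15. Lower genes numbered 125 from ES alone and 339 from ST8 alone, against 227 and 316 higher ones. Leaving out 1 array at a time gave 218 to 309 higher and 109 to 329 lower genes. At 4-fold, 112 genes were above and 150 below day 0 in the lagging arrays, and 259 and 213 in the advanced ones. Foregut counts were 1942 higher at a common median, and 1960 to 2965 higher and 1419 to 1961 lower with 1 array left out; those of amplified ES cells were 2208 to 2450 and 2286 to 2549. With the replicate number as a block, 250 and 208 genes were called between states, 2733 and 1819 in foregut and 2516 and 2627 in amplified ES cells; numbers are not said to pair cultures. For 82 named genes under 23 settings, 1617 of 1879 values moved by less than the spread between arrays, 262 moved by more and 0 called values changed sign. Changes of the size limit or overlap rule, a split by 1 gene and leaving out ST5 arrays could not move these values. With ES arrays alone or ST8 arrays alone, 54 of the 82 moved by more, and without the line term 42 did. Dim genes limit the cilia list (50 lower, 4 with dim genes left out) and the interferon list (28 and 14).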

Other observations

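The probe sets paired with no gene or with several numbered 13767. Under the rule used for genes, 75 of them were higher and 27 lower in the advanced arrays, 0.741% in all against 2.24% of the named genes.

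Short motifs were counted in RefSeq promoters (GRCm38.p6) on both strands, for the 190 higher and 138 lower genes that had one, beside 15612 promoters of all genes. The forkhead core TGTTTAC was in 3.68% of the promoters of higher and 7.25% of those of lower genes, against 3.02% of all. The octamer ATGCAAAT was in 1.58% and 2.90%, against 1.72%. The GATA motif AGATAA was in 9.47% and 7.25%, against 9.55%. A match is a description of these letters and not a binding site.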
